A study of Mus musculus with 12 samples.

Results

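Genes for folding and degrading proteins in the endoplasmic reticulum (ER) were followed as a set of 35 members of 38481 genes in the deposited counts. The members were given by symbol, and their listed transcripts were summed per gene with GENCODE M21 names, in which Ero1l and Ero1lb stand for the genes also called Ero1a and Ero1b. Of the 35 members, 32 had enough reads to be tested, among 13247 tested genes. Herpud1, Syvn1 and Selenos were not tested, with mean counts of 0.417, 2.17 and 1.08 per library.

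The cells were C2C12, a mouse myoblast line that grows as single cells and can fuse into muscle fibres. They came in 4 groups of 3 libraries: Crebl2 siRNA with rapamycin, Crebl2 siRNA with ethanol, Luc siRNA with rapamycin, and Luc siRNA with ethanol. All cells carried an siRNA for 3 days, either 1 sequence against Crebl2, labelled Crebl2 siRNA 1, or a control sequence against Renilla luciferase (Luc), and all then had 12 hours of 20 nM rapamycin or of ethanol, its solvent. Crebl2 is a bZIP protein related to the transcription factor CREB, and rapamycin inhibits the kinase complex mTORC1. No source says that the libraries of a group were separate cultures, so each p-value covers only library-to-library spread, which could be technical. A single siRNA sequence also means that an effect of losing Crebl2 and an effect of that sequence on other RNAs cannot be told apart.

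The ER folds secreted and membrane proteins with an Hsp70 (Hspa5, also called BiP), an Hsp90 (Hsp90b1), lectins that hold sugar-bearing chains, and enzymes that form and reshuffle disulfide bonds. Proteins that do not fold are drawn back into the cytosol, marked with ubiquitin and destroyed, a route called ER-associated degradation. When unfolded proteins build up, the membrane sensors IRE1 (Ern1), PERK (Eif2ak3) and ATF6 start the unfolded protein response, in which the transcription factors XBP1 and ATF6 act on ER stress elements in the promoters of chaperone genes.

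Because those elements are the known common feature of chaperone promoters, they were searched for in RefSeq promoter windows (GRCm38.p6), which run from 250 bases before to 50 bases after a gene's start and exist for 31 of the 35 members, all but Manf, Atf6, Hyou1 and Derl1. The ER stress element (ERSE) is CCAAT, then 9 bases, then CCACG, read on both strands. It was present for 10 of the 31 members (32.3%) and in 39 of all 32851 windows (0.119%). The member share counts genes with the word in any of their windows, and the other share counts windows. These 2 shares, here and below, are therefore not in the same unit. The 11 copies are printed 5′ to 3′ on their own strand with 5 flanking bases on each side, and capitals mark CCAAT and CCACG.
Calr chr8:84847070-84847098, plus strand: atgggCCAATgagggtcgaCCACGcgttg
Canx chr11:50325795-50325823, minus strand: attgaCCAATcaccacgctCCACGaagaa
Creld2 chr15:88819515-88819543, minus strand: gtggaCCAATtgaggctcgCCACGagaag
Derl3 chr10:75893237-75893265, minus strand: gctagCCAATggggaagtcCCACGgtaga
Dnajc3 chr14:118937822-118937850, plus strand: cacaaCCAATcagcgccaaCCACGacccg
Ero1lb chr13:12565677-12565705, minus strand: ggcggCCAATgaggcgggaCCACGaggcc
Hsp90b1, nearer copy, chr10:86705528-86705556, plus strand: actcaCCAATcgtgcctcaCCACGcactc
Hsp90b1, farther copy, chr10:86705633-86705661, minus strand: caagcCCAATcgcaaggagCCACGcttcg
Hspa5 chr2:34772020-34772048, plus strand: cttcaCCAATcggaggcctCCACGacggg
Pdia6 chr12:17266486-17266514, plus strand: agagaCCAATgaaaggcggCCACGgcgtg
Syvn1 chr19:6046527-6046555, plus strand: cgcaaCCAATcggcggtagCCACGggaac
The shorter form, ERSE-II, is ATTGG, 1 base, then CCACG, and was found for 2 members (6.45%) and in 12 of all windows (0.0365%). Capitals mark the whole element.
Dnajb11 chr16:22857847-22857867, plus strand: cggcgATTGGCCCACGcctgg
Herpud1 chr8:94386372-94386392, plus strand: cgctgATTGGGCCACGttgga

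Hsp90b1 was the member with more than 1 ERSE, and 6 of the 11 copies lay on the gene's own strand. Their first bases lay at −212 to −44 from the start, as the map of elements by distance shows. The tail CCACG alone, which also lies inside both elements, was found for 26 of 31 members (83.9%, by gene) and in 32.8% of all windows. The word TGACGTGG, read by XBP1 and ATF6, was in no member window and in 0.676% of all windows. The cAMP response word TGACGTCA was in none either and in 1.79% of all windows. The C/EBP-ATF word TGATGNAAN was found for Herpud1 alone (3.23% of members, by gene) and in 3.95% of all windows. These matches describe letters in a window and show no binding.

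**Figure D1:**
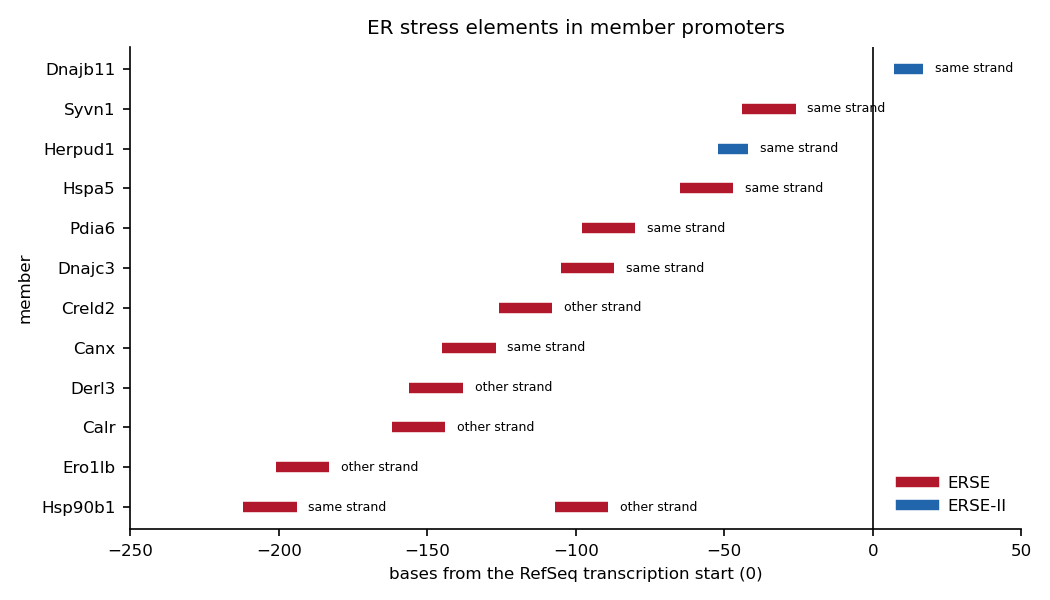
ER stress elements in member promoters, drawn by distance in bases from the RefSeq transcription start (0). Each bar spans 1 element, red for ERSE and blue for ERSE-II, with its strand relative to the gene; Hsp90b1 has 2 copies, and the other ERSE members have 1.

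Library totals lay between 33404087 and 42891015 counts. Crebl2 itself had 10.7, 8.97 and 9.49 CPM (read counts scaled to library size) in rapamycin and 4.87, 7.41 and 6.02 CPM in ethanol with the Crebl2 siRNA, against 40.0, 36.4 and 36.3 CPM in rapamycin and 23.8, 25.3 and 26.2 CPM in ethanol with the Luc siRNA. It fell by 1.95 ± 0.11 in rapamycin and fell by 2.05 ± 0.11 in ethanol (log2, SE; edgeR adjusted p = 3.6e-09 and 3.7e-09). The 8 myoblast markers summed to 3584 to 3751 CPM in rapamycin and 3883 to 4416 CPM in ethanol with the Crebl2 siRNA, and to 3177 to 3478 CPM in rapamycin and 4363 to 4692 CPM in ethanol with the Luc siRNA, lower in every rapamycin library. The 7 markers of differentiated muscle, 5 of them tested, summed to 29.7 to 36.8 CPM in rapamycin and 41.5 to 49.6 CPM in ethanol with the Crebl2 siRNA, and to 112 to 135 CPM in rapamycin and 311 to 419.6 CPM in ethanol with the Luc siRNA. The summed muscle markers therefore moved with both factors. Acta1 and Actc1 held most of that sum, with means of 287.3 and 72.6 CPM in Luc siRNA ethanol, and 4 of the 7 markers averaged below 1 CPM. The summed myoblast markers were lower in rapamycin, and within rapamycin they were higher with the Crebl2 siRNA than with the Luc siRNA. Single myoblast markers (Myod1, Myf5, Des, Cdh15, Pax7, Myog, Vcam1 and Itga7) went both ways with the Crebl2 siRNA (edgeR adjusted p under 0.05). Myog averaged 8.96 CPM in rapamycin and 20.1 CPM in ethanol with the Crebl2 siRNA, and 74.5 and 203.1 CPM with the Luc siRNA. Myog therefore moved as the summed muscle markers did and unlike the myoblast sum. In ethanol 1 of 8 was higher and 3 lower (background: 21.4% of all tested genes and 17.0%). In rapamycin 3 were higher and 2 lower (background: 16.3% and 16.8%). The part of both sets in the changes below was not tested. Summed markers of leukocytes (Ptprc, Adgre1 and Itgam at 0), endothelium (Tek at 0), epithelium, fat and nerve (Snap25 and Elavl4 at 0) stayed at or under 1.62 CPM in every library.

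The members together took 0.799, 0.813 and 0.776% of all counts in rapamycin and 1.15, 1.20 and 1.15% in ethanol with the Crebl2 siRNA. With the Luc siRNA they took 0.832, 0.812 and 0.822% in rapamycin and 1.09, 1.11 and 1.12% in ethanol. With either siRNA the rapamycin libraries lay below all ethanol libraries. Calr, P4hb, Hsp90b1, Pdia3 and Pdia6 held 76.1% of the member reads, so the share mostly follows these abundant chaperones. In bulk RNA, fewer cells that use a gene and less RNA per cell cannot be told apart.

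Levels between members can be set side by side only per length, here per kilobase of bases that belong to a single listed transcript (countable bases). On that scale, as a mean of all 12 libraries, Calr had 1021 CPM per kb, P4hb 787, Hsp90b1 529, Pdia3 470.2 and Pdia6 379. Among single-transcript members of lower level, Pdia4 had 119.9 CPM per kb, Creld2 94.2, Dnajc3 40.0, Edem1 30.7, Sdf2l1 27.8, Ero1l 21.3 and Dnajb9 13.4. Ero1lb, the second oxidase, was at 2.6 CPM per kb and Derl3 at 0.186, the lowest of the single-transcript members. Reads that fall on several listed transcripts appear to be missing from the deposited counts: the 8978 listed transcripts with no base of their own held 0.032% of the reads. How such reads were handled is not given in the sources used here, and 17 of the 35 members have several listed transcripts. For Hspa5, 32.6% of its exonic bases were countable, its mean count was 96.8, and 82.0% of its reads came from Hspa5-202, which has 82 bases of its own. Canx (11.9% countable, mean count 46.4), Hyou1 (6.54%, 54.7), Os9 (6.58%, 173), Sel1l (2.66%, 165), Atf6b (10.4%, 286) and Manf (69.3%, 81.3) are likewise known here from few reads of 1 isoform, and their levels do not stand for the gene. The 18 members with 1 listed transcript were all tested, and counts for them are given beside those for all members; this split was chosen after the data had been seen.

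**Figure D2:**
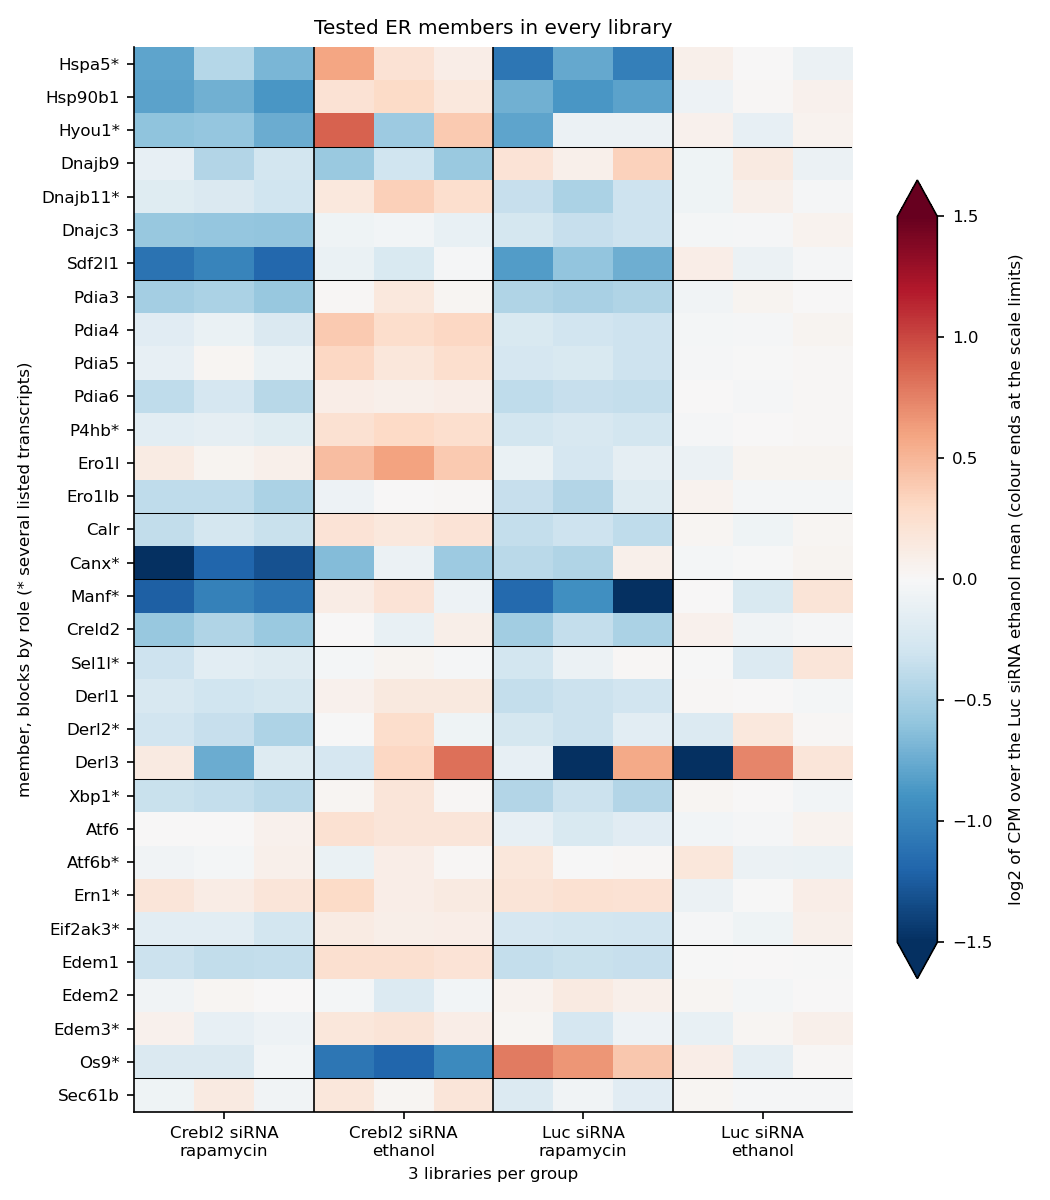
The 32 tested members (rows, in blocks by role) in the 12 libraries (columns, 3 per group), coloured by the log2 of the level in CPM over the mean of the Luc siRNA ethanol libraries. In rapamycin 27 members have a group mean below that of the Luc siRNA ethanol libraries with each siRNA (blue); the 5 others are Atf6, Atf6b, Ern1, Ero1l and Sec61b with the Crebl2 siRNA and Atf6b, Dnajb9, Edem2, Ern1 and Os9 with the Luc siRNA. Rows with an asterisk have several listed transcripts.

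In rapamycin, ER chaperone genes were lower with either siRNA. The members were chosen with earlier results of these data known, so the background shares give a scale and are no test of the set. With the Crebl2 siRNA 24 of 32 tested members fell and 1 rose (background: 25.6% of all tested genes fell and 19.7% rose), and with the Luc siRNA 20 fell and 2 rose (background: 21.6% fell and 19.5% rose). A gene was called when its edgeR quasi-likelihood p, adjusted over all tested genes by Benjamini-Hochberg, was under 0.05. The median change of the members was −0.43 with the Crebl2 siRNA and −0.28 with the Luc siRNA (log2), where all genes had −0.01 and 0.02. The rapamycin and ethanol libraries did not overlap for 26 of 32 members with the Crebl2 siRNA (background: 53.6% of all tested genes) and for 24 with the Luc siRNA (background: 50.4%). Among the 18 members with 1 listed transcript, 14 fell and 0 rose with each siRNA, with medians of −0.46 with the Crebl2 siRNA and −0.32 with the Luc siRNA.

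The same 20 members fell in both comparisons, which share no library: Atf6, Calr, Creld2, Derl1, Dnajb11, Dnajc3, Edem1, Eif2ak3, Ero1l, Ero1lb, Hsp90b1, Hspa5, Manf, P4hb, Pdia3, Pdia4, Pdia5, Pdia6, Sdf2l1 and Xbp1. The share of all tested genes that fell in both was not counted. Singly, 25.6% fell with the Crebl2 siRNA and 21.6% with the Luc siRNA. Canx, Derl2, Edem3 and Hyou1 passed the test with the Crebl2 siRNA alone. Os9 rose with both siRNAs, and Ern1 passed as higher with the Luc siRNA alone. Atf6b, Derl3, Dnajb9, Edem2, Sec61b and Sel1l passed with neither. The plot of rapamycin changes sets both siRNAs side by side.

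**Figure D3:**
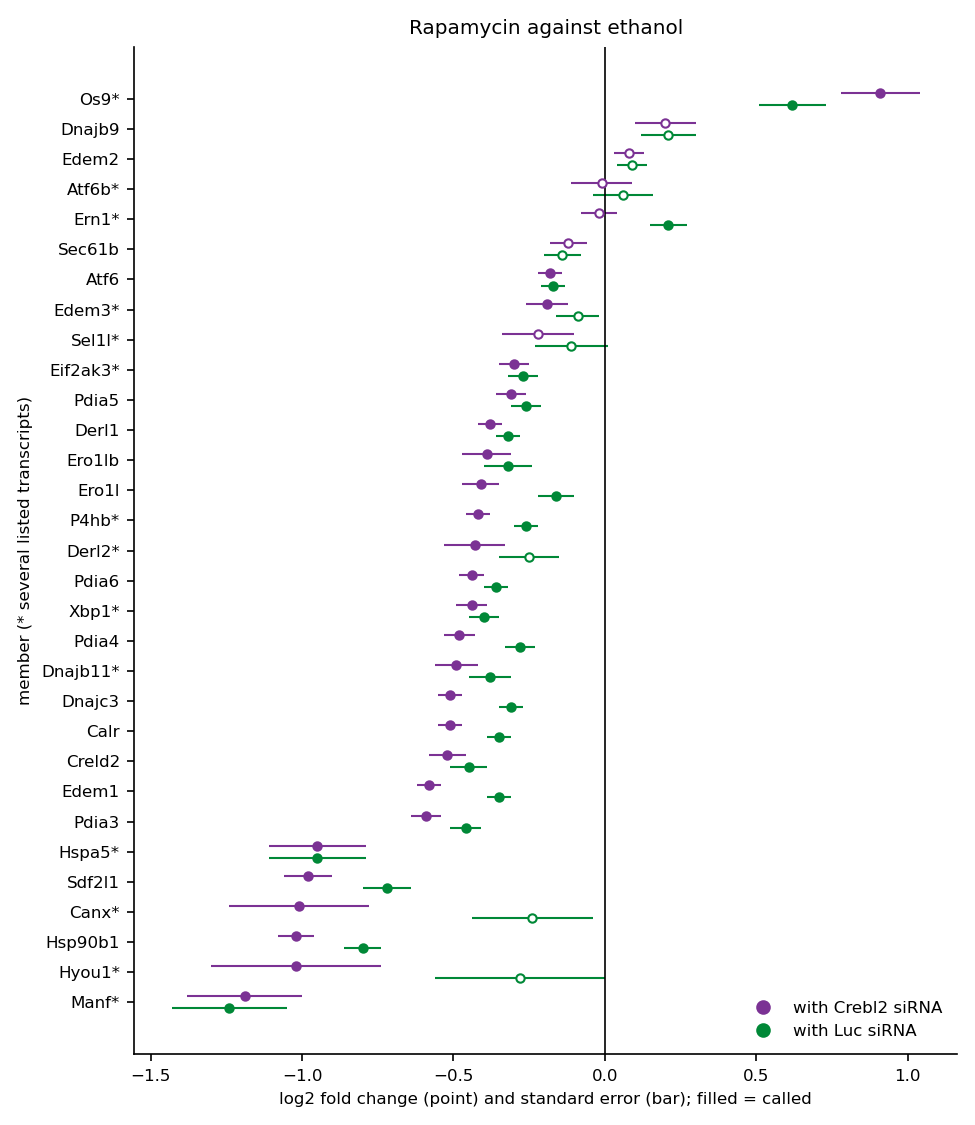
Log2 fold change (point) and standard error (bar) of rapamycin against ethanol for 31 tested members, with the Crebl2 siRNA in purple and the Luc siRNA in green; filled points passed edgeR at an adjusted p under 0.05. Hsp90b1 lies at −1.02 and −0.80, and Os9 stands at the other end at 0.91 and 0.62; Derl3, with a mean count of 9.25, is left out for its wide bars.

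The Crebl2 siRNA moved fewer members. In ethanol 11 of 32 members were higher than with the Luc siRNA and 2 were lower (background: 21.4% of all genes higher and 17.0% lower), with a median of 0.11 where all genes had 0.01. In rapamycin 3 members were higher and 5 lower (background: 16.3% and 16.8%), with a median of 0.00 where all genes had −0.01. That count of higher members depended on the setting: with RLE scaling 6 were higher and 5 lower, with P4hb, Pdia4 and Sec61b added (adjusted p = 0.016, 0.034 and 0.028), and without Crebl2 siRNA rapamycin replicate 3 there were 8, with Dnajb11 and Eif2ak3 as well. Over all tested genes 2157 were higher and 2228 lower in rapamycin, and 2486 and 1939 with RLE scaling. Without Crebl2 siRNA rapamycin replicate 3 they numbered 2212 and 1629. Among the 18 single-transcript members the counts were 8 higher and 1 lower in ethanol, and 3 higher and 3 lower in rapamycin. Libraries of the Crebl2 and Luc siRNAs did not overlap for 20 of 32 members in ethanol (background: 46.9% of all tested genes) and for 13 in rapamycin (background: 46.0%), so the count in rapamycin was no higher than the background share.

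Atf6, Ero1l and Pdia5 were higher with the Crebl2 siRNA in both ethanol and rapamycin, and Dnajb9 and Os9 were lower in both. Calr, Derl1, Dnajb11, Edem1, Ern1, Hsp90b1, P4hb and Pdia4 passed as higher in ethanol alone, P4hb and Pdia4 being among those added in rapamycin by RLE scaling, and Canx, Dnajc3 and Sdf2l1 as lower in rapamycin alone. Passing in one medium and not in the other is not a test of a difference, which is given with the interaction at the end. The siRNA and rapamycin comparisons share libraries in pairs, so their values for a member are set side by side without being taken as separate evidence.

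**Figure D4:**
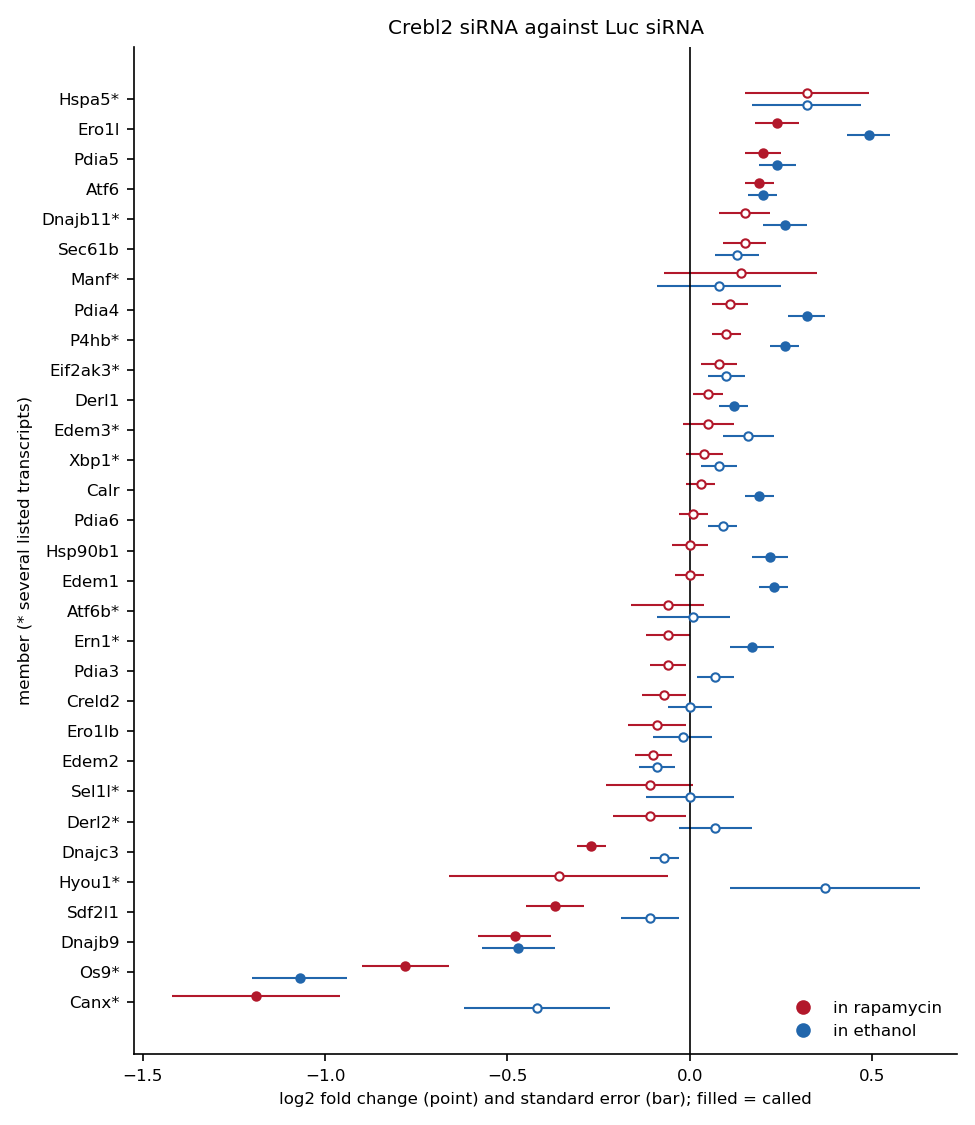
Log2 fold change (point) and standard error (bar) of the Crebl2 siRNA against the Luc siRNA for 31 tested members, in rapamycin (red) and in ethanol (blue); filled points passed edgeR at an adjusted p under 0.05, and Derl3 is left out. Ero1l is at 0.24 in rapamycin and 0.49 in ethanol, and Dnajb9 is at −0.48 and −0.47.

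Among the luminal Hsp70 and Hsp90 chaperones, all 3 tested members fell in rapamycin with the Crebl2 siRNA and 2 of 3 with the Luc siRNA (background: 25.6% and 21.6%). Hsp90b1 (GRP94), the Hsp90 of the ER, is at chr10:86690209-86705509 (GRCm38, minus strand). It had 959.8, 1019.8 and 919 CPM in rapamycin and 1952, 2044 and 1868 CPM in ethanol with the Crebl2 siRNA, and 1020.3, 916 and 962 CPM in rapamycin and 1591, 1690.5 and 1748 CPM in ethanol with the Luc siRNA. The rapamycin libraries of both siRNAs lay together, and the Crebl2 siRNA ethanol libraries lay above all others. Hsp90b1 fell by 1.02 ± 0.06 in rapamycin with the Crebl2 siRNA (log2, SE; edgeR adjusted p = 8.2e-10), or fell by 50.6%. With the Luc siRNA it fell by 0.80 ± 0.06 (edgeR adjusted p = 1.6e-08), or fell by 42.4%. In Crebl2 siRNA cells against Luc siRNA cells it rose by 0.22 ± 0.05 in ethanol (edgeR adjusted p = 0.0049), while the value in rapamycin was 0.00 ± 0.05 (edgeR adjusted p = 1.0).

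Hspa5, the Hsp70 that holds unfolded chains and keeps the stress sensors inactive, had 1.73, 2.23 and 1.86 CPM in rapamycin and 4.51, 3.48 and 3.21 CPM in ethanol with the Crebl2 siRNA, and 1.41, 1.76 and 1.47 CPM in rapamycin and 3.17, 3.0 and 2.83 CPM in ethanol with the Luc siRNA. With each siRNA all rapamycin libraries lay below all ethanol libraries, on few reads. It fell by 0.95 ± 0.16 with the Crebl2 siRNA (edgeR adjusted p = 0.00012) and fell by 0.95 ± 0.16 with the Luc siRNA (edgeR adjusted p = 0.00019). Its siRNA values were 0.32 ± 0.15 in ethanol and 0.32 ± 0.17 in rapamycin and did not pass (edgeR adjusted p = 0.11 and 0.17). Hyou1 (GRP170), a nucleotide exchange factor for Hspa5, had 1.01, 1.02 and 0.912 CPM in rapamycin and 2.83, 1.05 and 2.01 CPM in ethanol with the Crebl2 siRNA, and 0.887, 1.44 and 1.44 CPM in rapamycin and 1.6, 1.4 and 1.59 CPM in ethanol with the Luc siRNA. It fell by 1.02 ± 0.28 in rapamycin with the Crebl2 siRNA (edgeR adjusted p = 0.008), a call that was lost without Crebl2 siRNA ethanol replicate 1 (−0.67, adjusted p = 0.061). Its other rapamycin and siRNA changes ran from −0.36 ± 0.30 to 0.37 ± 0.26 and did not pass.

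Of the J-domain proteins, which pass clients to Hspa5 and start its ATPase, Dnajb11 and Dnajc3 fell in rapamycin with both siRNAs and Dnajb9 did not pass. Dnajb11 (ERdj3), which binds unfolded chains itself, had 28, 27.4 and 25.9 CPM in rapamycin and 35.6, 40.7 and 37.9 CPM in ethanol with the Crebl2 siRNA, and 25, 22.8 and 25.6 CPM in rapamycin and 30.3, 33.6 and 31.5 CPM in ethanol with the Luc siRNA. Its rapamycin libraries lay below all ethanol libraries of the same siRNA. It fell by 0.49 ± 0.07 with the Crebl2 siRNA (edgeR adjusted p = 1.6e-05) and fell by 0.38 ± 0.07 with the Luc siRNA (edgeR adjusted p = 0.00026). Compared with the Luc siRNA it rose by 0.26 ± 0.06 in ethanol (edgeR adjusted p = 0.0049) and differed by 0.15 ± 0.07 in rapamycin (edgeR adjusted p = 0.11). Dnajc3 (p58IPK), a co-chaperone also known as an inhibitor of eIF2α kinases, had 162, 161 and 159 CPM in rapamycin and 229, 233 and 222 CPM in ethanol with the Crebl2 siRNA, and 199, 189 and 193 CPM in rapamycin and 235, 236 and 248 CPM in ethanol with the Luc siRNA. The Crebl2 siRNA rapamycin libraries were the lowest of the 12. It fell by 0.51 ± 0.04 in rapamycin with the Crebl2 siRNA and fell by 0.31 ± 0.04 with the Luc siRNA (edgeR adjusted p = 7.1e-08 and 1.8e-05). Relative to the Luc siRNA it fell by 0.27 ± 0.04 in rapamycin (edgeR adjusted p = 0.00012), and its value in ethanol, −0.07 ± 0.04, did not pass (0.18).

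Sdf2l1, a small partner of Dnajb11, had 19, 20.7 and 18.2 CPM in rapamycin and 38.4, 35 and 40.4 CPM in ethanol with the Crebl2 siRNA, and 22.9, 27.3 and 24.6 CPM in rapamycin and 44, 38.6 and 40.5 CPM in ethanol with the Luc siRNA. The ethanol libraries of both siRNAs overlapped, and the Crebl2 siRNA rapamycin libraries lay below the Luc siRNA rapamycin libraries. It fell by 0.98 ± 0.08 in rapamycin with the Crebl2 siRNA (edgeR adjusted p = 6.8e-08) and fell by 0.72 ± 0.08 with the Luc siRNA (edgeR adjusted p = 2e-06). In Crebl2 siRNA cells against Luc siRNA cells it fell by 0.37 ± 0.08 in rapamycin (edgeR adjusted p = 0.0022), against a value of −0.11 ± 0.08 in ethanol that did not pass (0.27). Dnajb9 (ERdj4), which brings Hspa5 back onto IRE1 and so dampens that sensor, did not follow the others. It had 32.7, 26.2 and 29.3 CPM in rapamycin and 24.1, 28.8 and 24.2 CPM in ethanol with the Crebl2 siRNA, and 41, 37.4 and 45.1 CPM in rapamycin and 34, 39.1 and 33.5 CPM in ethanol with the Luc siRNA. All Crebl2 siRNA libraries lay below the Luc siRNA libraries of the same medium. Compared with the Luc siRNA it fell by 0.47 ± 0.10 in ethanol and fell by 0.48 ± 0.10 in rapamycin (edgeR adjusted p = 0.0012 and 0.001). In rapamycin its values were 0.20 ± 0.10 with the Crebl2 siRNA and 0.21 ± 0.09 with the Luc siRNA, neither past the test (edgeR adjusted p = 0.11 and 0.085).

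All 7 disulfide isomerases and oxidases fell in rapamycin with each siRNA (background: 25.6% of all tested genes with the Crebl2 siRNA and 21.6% with the Luc siRNA). For each of them the rapamycin and ethanol libraries of an siRNA did not overlap (background: 53.6% and 50.4%). Pdia3 (ERp57), which works with the lectin chaperones, had 1052, 1082 and 1010.0 CPM in rapamycin and 1515, 1673 and 1527 CPM in ethanol with the Crebl2 siRNA, and 1100.2, 1069 and 1097 CPM in rapamycin and 1452, 1546 and 1504 CPM in ethanol with the Luc siRNA. It fell by 0.59 ± 0.05 with the Crebl2 siRNA and fell by 0.46 ± 0.05 with the Luc siRNA (edgeR adjusted p = 6.4e-08 and 1.1e-06). Its siRNA values, 0.07 ± 0.05 in ethanol and −0.06 ± 0.05 in rapamycin, did not pass. Pdia6 (P5), an isomerase that also binds the stress sensors, averaged 713 ± 43.5 CPM in rapamycin and 966 ± 9.9 CPM in ethanol with the Crebl2 siRNA, and 707 ± 8.64 CPM in rapamycin and 908 ± 11.3 CPM in ethanol with the Luc siRNA (SD, n = 3 each). It fell by 0.44 ± 0.04 with the Crebl2 siRNA and fell by 0.36 ± 0.04 with the Luc siRNA (edgeR adjusted p = 7.8e-07 and 8.2e-06), and its siRNA values were 0.09 ± 0.04 in ethanol and 0.01 ± 0.04 in rapamycin. For both genes the siRNAs were close and the media apart.

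Pdia4 (ERp72), P4hb (PDI, also a subunit of collagen prolyl 4-hydroxylase) and Pdia5 were in addition higher with the Crebl2 siRNA in ethanol. Pdia4 had 256, 268 and 248 CPM in rapamycin and 379, 345 and 357 CPM in ethanol with the Crebl2 siRNA, and 245, 236 and 233 CPM in rapamycin and 282, 285 and 298 CPM in ethanol with the Luc siRNA. In ethanol the Crebl2 siRNA libraries lay above the Luc siRNA libraries, a rise of 0.32 ± 0.05 (edgeR adjusted p = 7.2e-05); in rapamycin the value was 0.11 ± 0.05 (edgeR adjusted p = 0.08). P4hb had 1501, 1524 and 1473 CPM in rapamycin and 1965, 2066 and 1997 CPM in ethanol with the Crebl2 siRNA, and 1381, 1424 and 1388 CPM in rapamycin and 1651, 1677 and 1701 CPM in ethanol with the Luc siRNA. It rose by 0.26 ± 0.04 with the Crebl2 siRNA in ethanol (edgeR adjusted p = 6.1e-05), and its value in rapamycin, 0.10 ± 0.04, was at the edge of the test (edgeR adjusted p = 0.051). Pdia5 averaged 77.4 ± 4.61 CPM in rapamycin and 95.8 ± 4.73 CPM in ethanol with the Crebl2 siRNA, and 67.4 ± 1.94 CPM in rapamycin and 80.9 ± 0.744 CPM in ethanol with the Luc siRNA (SD, n = 3 each). It rose with the Crebl2 siRNA by 0.24 ± 0.05 in ethanol and by 0.20 ± 0.05 in rapamycin (edgeR adjusted p = 0.0013 and 0.0073). In rapamycin Pdia4 fell by 0.48 ± 0.05 and P4hb fell by 0.42 ± 0.04 with the Crebl2 siRNA, and Pdia4 fell by 0.28 ± 0.05 and P4hb fell by 0.26 ± 0.04 with the Luc siRNA (edgeR adjusted p = 5.4e-07, 2e-07, 0.00021 and 4e-05). Pdia5 fell by 0.31 ± 0.05 with the Crebl2 siRNA and fell by 0.26 ± 0.05 with the Luc siRNA (edgeR adjusted p = 0.00012 and 0.00062).

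Ero1l, the main oxidase that recharges P4hb, is at chr14:45283087-45318771 and was the member that rose most with the Crebl2 siRNA in ethanol. It had 94.2, 89.1 and 91.4 CPM in rapamycin and 119.8, 131 and 113 CPM in ethanol with the Crebl2 siRNA, and 80.6, 72.5 and 78.8 CPM in rapamycin and 81.8, 88.8 and 89.2 CPM in ethanol with the Luc siRNA. In each medium all Crebl2 siRNA libraries lay above all Luc siRNA libraries. It rose with the Crebl2 siRNA by 0.49 ± 0.06 in ethanol, to 1.4-fold, and by 0.24 ± 0.06 in rapamycin (edgeR adjusted p = 1.1e-05 and 0.0048). In rapamycin it fell by 0.41 ± 0.06 with the Crebl2 siRNA and fell by 0.16 ± 0.06 with the Luc siRNA (edgeR adjusted p = 3.2e-05 and 0.036). The Luc siRNA call was lost without any of 3 libraries in turn (Luc siRNA ethanol replicates 2 and 3 and rapamycin replicate 2), with values of −0.15, −0.14 and −0.15. Ero1lb, the second oxidase, had 9.53, 9.58 and 8.94 CPM in rapamycin and 11.8, 12.5 and 12.6 CPM in ethanol with the Crebl2 siRNA, and 9.79, 9.17 and 10.9 CPM in rapamycin and 12.9, 12.2 and 12.2 CPM in ethanol with the Luc siRNA. Its rapamycin libraries lay below its ethanol libraries, and the siRNAs overlapped in ethanol. It fell by 0.39 ± 0.08 with the Crebl2 siRNA and fell by 0.32 ± 0.08 with the Luc siRNA (edgeR adjusted p = 0.0007 and 0.0037), with siRNA values of −0.02 ± 0.08 in ethanol and −0.09 ± 0.08 in rapamycin.

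**Figure D5:**
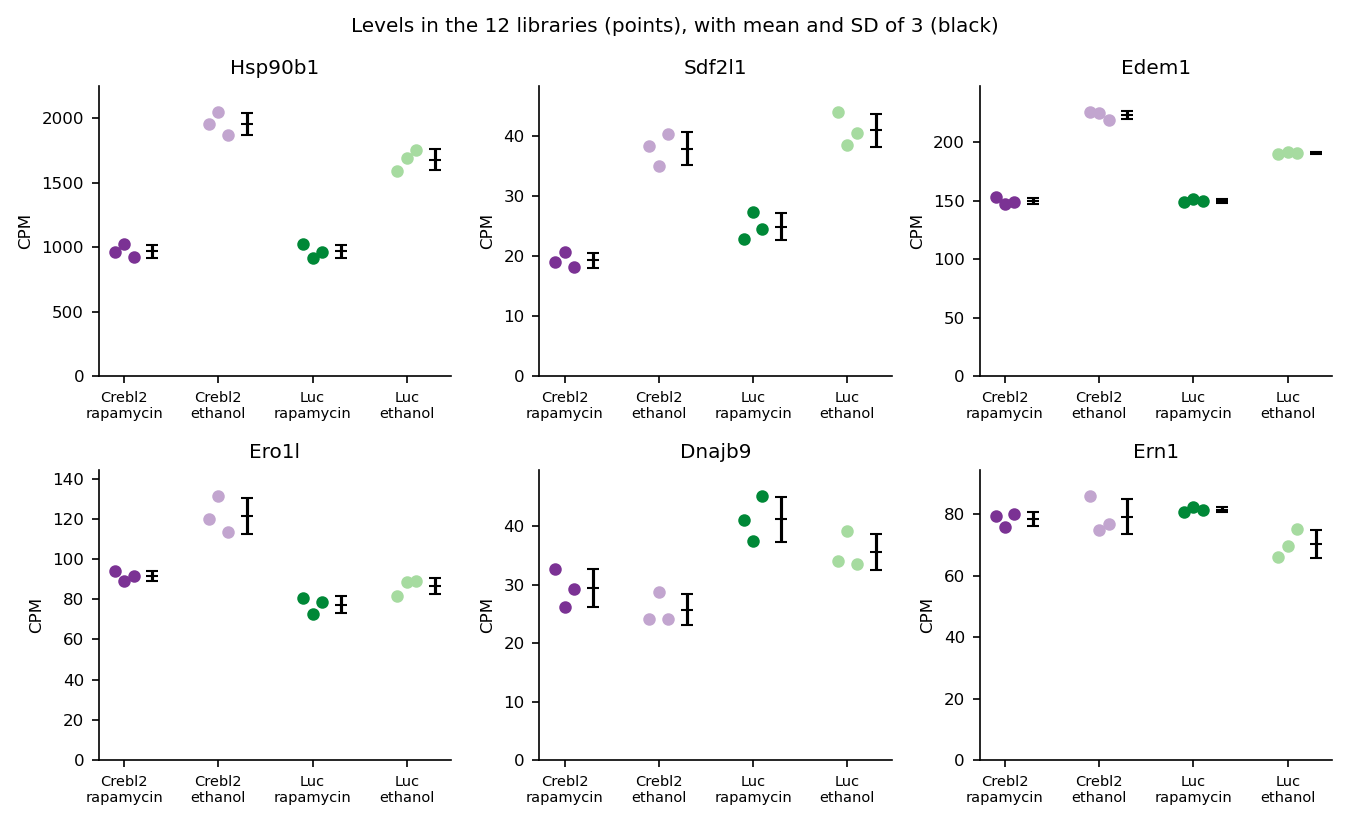
Level in CPM (vertical axis, from 0) of Hsp90b1, Sdf2l1, Edem1, Ero1l, Dnajb9 and Ern1 in the 12 libraries (points), with the mean and SD of 3 libraries in black. Hsp90b1 and Edem1 lie at the same level in rapamycin with either siRNA and highest in Crebl2 siRNA ethanol; Dnajb9 is lower in both Crebl2 siRNA groups.

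Of the lectin chaperones, which hold newly made glycoproteins, Calr carried the most reads of any member. Calr, a soluble lectin that also stores calcium, had 1852, 1997 and 1899 CPM in rapamycin and 2767, 2665 and 2754 CPM in ethanol with the Crebl2 siRNA, and 1875, 1928 and 1842 CPM in rapamycin and 2448, 2290.4 and 2445 CPM in ethanol with the Luc siRNA. Its rapamycin libraries lay below all ethanol libraries, and in ethanol the Crebl2 siRNA libraries lay above the Luc siRNA libraries. It fell by 0.51 ± 0.04 with the Crebl2 siRNA and fell by 0.35 ± 0.04 with the Luc siRNA (edgeR adjusted p = 1.1e-07 and 9.1e-06). Relative to the Luc siRNA it rose by 0.19 ± 0.04 in ethanol (edgeR adjusted p = 0.0027) and differed by 0.03 ± 0.04 in rapamycin (edgeR adjusted p = 0.69). Canx, its membrane-bound relative, was counted on Canx-205 alone and had 0.452, 0.725 and 0.669 CPM in rapamycin and 1.05, 1.56 and 1.13 CPM in ethanol with the Crebl2 siRNA, and 1.25, 1.21 and 1.74 CPM in rapamycin and 1.62, 1.64 and 1.7 CPM in ethanol with the Luc siRNA. The Crebl2 siRNA rapamycin libraries were the lowest. With the Crebl2 siRNA it fell by 1.01 ± 0.23 in rapamycin against ethanol, and in rapamycin it fell by 1.19 ± 0.23 against the Luc siRNA (edgeR adjusted p = 0.0021 and 0.00091); its siRNA value in ethanol (−0.42 ± 0.20) and its rapamycin value with the Luc siRNA (−0.24 ± 0.20) did not pass.

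Both secreted stress-induced proteins fell in rapamycin with each siRNA (background: 25.6% of all tested genes with the Crebl2 siRNA and 21.6% with the Luc siRNA). Creld2, a secreted protein of the stress response, had 102, 109.9 and 102 CPM in rapamycin and 150.5, 139 and 159.8 CPM in ethanol with the Crebl2 siRNA, and 105, 117 and 108 CPM in rapamycin and 157, 145 and 148 CPM in ethanol with the Luc siRNA. Its siRNA groups overlapped in both media, with values of 0.00 ± 0.06 in ethanol and −0.07 ± 0.06 in rapamycin. It fell by 0.52 ± 0.06 with the Crebl2 siRNA and fell by 0.45 ± 0.06 with the Luc siRNA (edgeR adjusted p = 2.5e-06 and 1.4e-05). Manf, an ER-resident factor that can be secreted, had the largest falls of any member in rapamycin, on few reads. It had 1.25, 1.45 and 1.37 CPM in rapamycin and 3.16, 3.36 and 2.76 CPM in ethanol with the Crebl2 siRNA, and 1.3, 1.54 and 0.83 CPM in rapamycin and 2.93, 2.5 and 3.33 CPM in ethanol with the Luc siRNA. All rapamycin libraries lay below all ethanol libraries. It fell by 1.19 ± 0.19 with the Crebl2 siRNA and fell by 1.24 ± 0.19 with the Luc siRNA (edgeR adjusted p = 7.9e-05 and 6.6e-05), and its siRNA values, 0.08 ± 0.17 in ethanol and 0.14 ± 0.21 in rapamycin, did not pass.

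Among the stress sensors and their factors, 3 of 5 fell in rapamycin with each siRNA (background: 25.6% of all tested genes with the Crebl2 siRNA and 21.6% with the Luc siRNA). Ern1 moved the other way with the Luc siRNA. Xbp1, whose RNA IRE1 splices into the form that codes for the active factor, had 132, 129.9 and 126 CPM in rapamycin and 169.8, 188 and 168 CPM in ethanol with the Crebl2 siRNA, and 122, 132 and 122 CPM in rapamycin and 169, 167 and 162 CPM in ethanol with the Luc siRNA. Summed counts do not tell the spliced from the unspliced form. It fell by 0.44 ± 0.05 with the Crebl2 siRNA and fell by 0.40 ± 0.05 with the Luc siRNA (edgeR adjusted p = 3.6e-06 and 1.2e-05), with siRNA values of 0.08 ± 0.05 in ethanol and 0.04 ± 0.05 in rapamycin. Eif2ak3 (PERK), the kinase that slows translation under ER stress, had 71, 70.9 and 65.8 CPM in rapamycin and 86.3, 84.2 and 84.7 CPM in ethanol with the Crebl2 siRNA, and 66.4, 65.4 and 65 CPM in rapamycin and 78.3, 76.1 and 83.6 CPM in ethanol with the Luc siRNA. Its ethanol libraries lay above its rapamycin libraries. It fell by 0.30 ± 0.05 with the Crebl2 siRNA and fell by 0.27 ± 0.05 with the Luc siRNA (edgeR adjusted p = 8e-05 and 0.00021); the siRNA values were 0.10 ± 0.05 in ethanol and 0.08 ± 0.05 in rapamycin.

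Atf6, the sensor that is cut in the Golgi to release a transcription factor, had 237, 237 and 247 CPM in rapamycin and 277, 268 and 269 CPM in ethanol with the Crebl2 siRNA, and 218, 202 and 210.4 CPM in rapamycin and 230.2, 234 and 246 CPM in ethanol with the Luc siRNA. It was highest with the Crebl2 siRNA in ethanol and lowest with the Luc siRNA in rapamycin. In Crebl2 siRNA cells against Luc siRNA cells it rose by 0.20 ± 0.04 in ethanol and by 0.19 ± 0.04 in rapamycin (edgeR adjusted p = 0.0018 and 0.0026). In rapamycin it fell by 0.18 ± 0.04 with the Crebl2 siRNA and fell by 0.17 ± 0.04 with the Luc siRNA (edgeR adjusted p = 0.0033 and 0.0046). Ern1 (IRE1), the nuclease that splices Xbp1, had 79.5, 75.9 and 80.0 CPM in rapamycin and 85.9, 75.1 and 77 CPM in ethanol with the Crebl2 siRNA, and 80.7, 82.5 and 81.5 CPM in rapamycin and 66.1, 69.8 and 75.2 CPM in ethanol with the Luc siRNA. Its Luc siRNA rapamycin libraries lay above its Luc siRNA ethanol libraries, and the Crebl2 siRNA ethanol libraries reached above and below the Luc siRNA rapamycin libraries, with the lowest of them just under the highest Luc siRNA ethanol library. It rose by 0.21 ± 0.06 in rapamycin with the Luc siRNA (edgeR adjusted p = 0.0067), with a value of −0.02 ± 0.06 with the Crebl2 siRNA. Compared with the Luc siRNA it rose by 0.17 ± 0.06 in ethanol (edgeR adjusted p = 0.024), although the groups overlapped, and this call was lost without Luc siRNA ethanol replicate 1 or 2 or Crebl2 siRNA ethanol replicate 1 (0.13, 0.17 and 0.12). Its value in rapamycin was −0.06 ± 0.06 (edgeR adjusted p = 0.49). Atf6b, the relative of Atf6, passed in none of the comparisons, with values of −0.06 ± 0.10 to 0.06 ± 0.10.

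The degradation genes were split. Edem1, a mannosidase-like lectin that hands misfolded glycoproteins to the degradation route, had 153, 148 and 149 CPM in rapamycin and 226, 225 and 219 CPM in ethanol with the Crebl2 siRNA, and 148, 152 and 149.5 CPM in rapamycin and 189.9, 192 and 191 CPM in ethanol with the Luc siRNA. The 6 rapamycin libraries lay together, the Luc siRNA ethanol libraries above them, and the Crebl2 siRNA ethanol libraries above those. It fell by 0.58 ± 0.04 in rapamycin with the Crebl2 siRNA and fell by 0.35 ± 0.04 with the Luc siRNA (edgeR adjusted p = 4.9e-09 and 1.7e-06). Relative to the Luc siRNA it rose by 0.23 ± 0.04 in ethanol (edgeR adjusted p = 0.00016), and its value in rapamycin was 0.00 ± 0.04 (edgeR adjusted p = 1.0). Edem2, its relative, averaged 141 ± 3.93 CPM in rapamycin and 133 ± 9.14 CPM in ethanol with the Crebl2 siRNA, and 150.2 ± 4.62 CPM in rapamycin and 141 ± 2.8 CPM in ethanol with the Luc siRNA (SD, n = 3 each) and passed in no comparison, with values of −0.10 ± 0.05 to 0.09 ± 0.05. Edem3 fell by 0.19 ± 0.07 in rapamycin with the Crebl2 siRNA (edgeR adjusted p = 0.036), a call lost without Crebl2 siRNA ethanol replicate 1 or 2 or rapamycin replicate 2 or 3 (−0.19, −0.18, −0.13 and −0.15). Its value with the Luc siRNA was −0.09 ± 0.07.

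Os9, a lectin that brings glycoproteins to the ubiquitin ligase complex, had 4.04, 4.06 and 4.56 CPM in rapamycin and 2.22, 2.07 and 2.42 CPM in ethanol with the Crebl2 siRNA, and 8.1, 7.43 and 6.25 CPM in rapamycin and 5.04, 4.3 and 4.78 CPM in ethanol with the Luc siRNA. In each medium the Crebl2 siRNA libraries lay below the Luc siRNA libraries, and with each siRNA the rapamycin libraries lay above the ethanol libraries. It rose by 0.91 ± 0.13 in rapamycin with the Crebl2 siRNA and by 0.62 ± 0.11 with the Luc siRNA (edgeR adjusted p = 2.8e-05 and 0.0004). In Crebl2 siRNA cells against Luc siRNA cells it fell by 1.07 ± 0.13 in ethanol and fell by 0.78 ± 0.12 in rapamycin (edgeR adjusted p = 9.5e-06 and 0.0001). Its reads all came from Os9-202, through 171 bases of that transcript's own, so the values describe that isoform.

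In the complex that moves proteins back to the cytosol, Derl1, a derlin of the membrane channel, averaged 269.5 ± 4.86 CPM in rapamycin and 352 ± 11.8 CPM in ethanol with the Crebl2 siRNA, and 259.7 ± 6.15 CPM in rapamycin and 324 ± 6.0 CPM in ethanol with the Luc siRNA (SD, n = 3 each). It fell by 0.38 ± 0.04 in rapamycin with the Crebl2 siRNA and fell by 0.32 ± 0.04 with the Luc siRNA (edgeR adjusted p = 1.5e-06 and 1.3e-05). Compared with the Luc siRNA it rose by 0.12 ± 0.04 in ethanol (edgeR adjusted p = 0.033), a call lost without any of 5 of the 6 libraries compared (0.10 to 0.13). Derl2 fell by 0.43 ± 0.10 in rapamycin with the Crebl2 siRNA (edgeR adjusted p = 0.0022) and had −0.25 ± 0.10 with the Luc siRNA (0.054), which passed with RLE scaling (0.048). Derl3 was near the floor of the test, at 0.0492 to 0.431 CPM over the libraries, and passed in no comparison. Sel1l, the adaptor of the ligase Syvn1, averaged 3.99 ± 0.215 CPM in rapamycin and 4.66 ± 0.128 CPM in ethanol with the Crebl2 siRNA, and 4.3 ± 0.442 CPM in rapamycin and 4.65 ± 0.619 CPM in ethanol with the Luc siRNA (SD, n = 3 each), and its values of −0.22 ± 0.12 to 0.00 ± 0.12 did not pass. Syvn1, Herpud1, a scaffold of the complex, and Selenos, which draws in the ATPase Vcp, had too few countable reads for any statement, with 2.17 mean counts or fewer.

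Sec61b, a subunit of the channel through which proteins enter the ER, had 155, 177 and 156 CPM in rapamycin and 182, 165 and 183 CPM in ethanol with the Crebl2 siRNA, and 139.6, 156 and 144 CPM in rapamycin and 165, 159.6 and 159.5 CPM in ethanol with the Luc siRNA. The groups overlapped except for the Luc siRNA in rapamycin against ethanol and the siRNAs in ethanol. Its values lay between −0.14 ± 0.06 and 0.15 ± 0.06 and none passed (edgeR adjusted p = 0.12 and 0.07 for rapamycin with the Crebl2 and Luc siRNAs, 0.098 and 0.061 for the siRNA in ethanol and rapamycin). Other settings gave calls: 0.18 for the siRNA in rapamycin with RLE scaling (edgeR adjusted p = 0.028), and −0.15 for rapamycin with the Luc siRNA when only the compared groups were fitted (edgeR adjusted p = 0.026).

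Whether the rapamycin change depended on the siRNA was tested with the interaction, which subtracts the Luc siRNA change from the Crebl2 siRNA change. Edem1 alone passed, at −0.23 ± 0.05 (edgeR adjusted p = 0.048), of 32 members; over all genes 0.611% passed as positive and 0.589% as negative. The call was lost in each of the 12 fits that left out 1 library (−0.24 to −0.16). The interaction was negative for 28 members and positive for 4, and over all genes it was negative for 56.3%. At an unadjusted p under 0.05 there were 10 members, all negative (Calr, Canx, Dnajc3, Edem1, Ern1, Ero1l, Hsp90b1, P4hb, Pdia4 and Sdf2l1), where 14.3% of all genes had such a p. The values of the abundant ones were −0.22 ± 0.08 for Hsp90b1, −0.21 ± 0.07 for Pdia4, −0.16 ± 0.06 for Calr and −0.16 ± 0.05 for P4hb (edgeR adjusted p = 0.2, 0.16, 0.23 and 0.17). The sensors had 0.00 ± 0.06 for Atf6, −0.23 ± 0.08 for Ern1, −0.02 ± 0.07 for Eif2ak3 and −0.04 ± 0.07 for Xbp1, and Hspa5 had 0.00 ± 0.21. Neither these sensors nor Hspa5 passed (edgeR adjusted p = 0.99, 0.2, 0.92, 0.87 and 1.0).

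The printed promoter elements can be set beside the changes. Of the 9 tested members with an ERSE, 8 fell in rapamycin with the Crebl2 siRNA and 7 with the Luc siRNA (background: 25.6% and 21.6%), with medians of −0.52 and −0.35. Among these 9, Derl3, Canx and Hspa5 rest on few reads (mean counts of 9.25, 46.4 and 96.8). Of the 19 tested members with a window and no ERSE, 12 fell and 1 rose with the Crebl2 siRNA and 10 fell and 2 rose with the Luc siRNA, with medians of −0.31 and −0.25. The ranges overlapped: with the Luc siRNA −0.95 to −0.17 with an ERSE and −0.72 to 0.62 without. The largest falls in rapamycin with the Luc siRNA were those of Manf (−1.24, no window) and Hspa5 (−0.95, with an ERSE), both on few reads. Hsp90b1 (−0.80, with an ERSE) and Sdf2l1 (−0.72, no ERSE in its window) came next. For the Crebl2 siRNA in ethanol, 2 of 9 members with an ERSE rose and 0 fell (median 0.09). Of the 19 without one, 7 rose and 2 fell (median 0.10). The background there was 21.4% of all tested genes higher and 17.0% lower, so the rises with an ERSE were near the background share. No test was made of these splits.

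The other genes of the pathway were described by 10 lists chosen with earlier results of these data known. In rapamycin 25.6% of all tested genes fell and 19.7% rose with the Crebl2 siRNA, and 21.6% fell and 19.5% rose with the Luc siRNA. These shares are the background for the rapamycin counts of every list below. Of 21 tested translocon and signal peptidase genes, 14 fell and 0 rose in rapamycin with the Crebl2 siRNA, and 10 fell and 0 rose with the Luc siRNA, with medians of −0.40 and −0.17. Ssr1, a subunit of the translocon-associated complex, was at −0.66 ± 0.05 and Sec11c, of the signal peptidase, at −0.39 ± 0.05 with the Luc siRNA (edgeR adjusted p = 3.2e-08 and 7.9e-06). Of 20 oligosaccharyltransferase and glycan-trimming genes, 12 fell and 2 rose with the Crebl2 siRNA and 8 fell and 2 rose with the Luc siRNA; Rpn1 and Ostc, both of the transferase, were at −0.35 ± 0.04 and −0.41 ± 0.04 with the Luc siRNA (edgeR adjusted p = 1.1e-05 and 2.7e-06). Of 20 genes for COPII export from the ER, 12 fell and 0 rose with the Crebl2 siRNA and 11 fell and 0 rose with the Luc siRNA, for example the coat subunit Sec23b (−0.49 ± 0.04) and the retrieval receptor Kdelr2 (−0.46 ± 0.05; edgeR adjusted p = 2.7e-07 and 1.2e-06).

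Other luminal folding factors were mixed: of 28, 13 fell and 6 rose with the Crebl2 siRNA and 9 fell and 4 rose with the Luc siRNA, with Fkbp14, a proline isomerase, at −0.43 ± 0.05 and Cnpy4 at −0.36 ± 0.04 with the Luc siRNA. Of 30 further degradation factors, 10 fell and 4 rose with the Crebl2 siRNA and 6 fell and 5 rose with the Luc siRNA. The Luc siRNA counts were no higher than the background shares. Vcp, the ATPase that pulls proteins out of the membrane, was at −0.33 ± 0.04 and Rad23b, a ubiquitin shuttle, at −0.32 ± 0.04 with the Luc siRNA. Of 12 stress-signalling partners, 6 fell and 1 rose with the Crebl2 siRNA and 5 fell and 0 rose with the Luc siRNA, with Ppp1r15b, an eIF2α phosphatase subunit, at −0.38 ± 0.04 and Eif2s1, which codes for eIF2α, at −0.40 ± 0.06. Of 11 outputs of the integrated stress response, the branch downstream of eIF2α kinases, 7 fell and 1 rose with the Crebl2 siRNA and 6 fell and 1 rose with the Luc siRNA. Atf4, its transcription factor, was at −0.68 ± 0.04 and Ddit4, an inhibitor of mTORC1, at −1.12 ± 0.06 with the Luc siRNA. The 8 genes named passed edgeR at adjusted p values of 5.5e-06, 5.5e-06, 9.5e-06, 6.6e-06, 3.1e-06, 6.1e-05, 5.6e-09 and 1.3e-09.

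Genes for collagen and other secreted cargo were mixed. Of 12 genes that modify collagen in the ER, 3 fell and 4 rose in rapamycin with the Crebl2 siRNA and 1 fell and 6 rose with the Luc siRNA; the prolyl hydroxylases P4ha3 and P3h2 were at 0.58 ± 0.05 and 1.33 ± 0.08 with the Luc siRNA. Of 21 collagens and other matrix proteins, 5 fell and 9 rose with the Crebl2 siRNA and 3 fell and 10 rose with the Luc siRNA, among them Bgn (0.67 ± 0.04) and Thbs1 (0.77 ± 0.08). Heat shock proteins outside the ER, taken as a comparison, had 10 of 14 lower and 1 higher with the Crebl2 siRNA and 9 lower and 1 higher with the Luc siRNA; Cryab was at −0.52 ± 0.05 and the mitochondrial chaperonin Hspd1 at −0.64 ± 0.06. The 6 genes named passed edgeR at adjusted p values of 4.6e-07, 5e-09, 9.8e-09, 2.6e-06, 1.1e-06 and 2.4e-07.

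For the Crebl2 siRNA in ethanol the background was 21.4% of all tested genes higher and 17.0% lower. COPII export genes had 10 of 20 higher and 2 lower, and translocon and signal peptidase genes 9 of 21 higher and 2 lower. Oligosaccharyltransferase and trimming genes had 8 of 20 higher and 4 lower. The 2 genes with the smallest p in each were Sec23b at 0.35 ± 0.04 and Sec23a at −1.24 ± 0.09 (38.5% countable), the receptor subunits Srpr at 0.21 ± 0.04 and Srprb at 0.34 ± 0.05, and the glucosidase subunit Ganab at 0.26 ± 0.04 with the cargo lectin Lman1 at −0.50 ± 0.06. Among the other luminal factors 6 of 28 were higher and 5 lower, near the background shares. The 2 with the smallest p were the thioredoxin-like Tmx1 at 0.60 ± 0.04 and Sil1, a nucleotide exchange factor for Hspa5, at −0.58 ± 0.06. The stress response outputs had 5 of 11 higher and 1 lower (Sesn2 at 0.80 ± 0.06, Chac1 at 0.63 ± 0.07). Stress partners had 4 of 12 higher and 1 lower (Creb3l1 at 0.49 ± 0.07, Eif2s1 at 0.38 ± 0.06). Degradation factors had 6 of 30 higher and 4 lower, neither above the background share (Rad23b at 0.32 ± 0.04, Ubxn6 at −0.40 ± 0.06). Collagen-modifying genes had 0 of 12 higher and 5 lower (P3h3 at −0.80 ± 0.07, P4ha1 at −0.74 ± 0.11), matrix genes 5 of 21 each way (Col6a1 at −0.76 ± 0.05, Dcn at −2.00 ± 0.13), and heat shock genes outside the ER 6 of 14 higher and 1 lower (Hspd1 at 0.60 ± 0.06, Hspe1 at 0.55 ± 0.05). The named genes passed edgeR at adjusted p values between 1.4e-08 and 0.00032.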

How the data were processed

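Total RNA of 12 C2C12 libraries was sequenced from stranded libraries. The authors deposited whole-number read counts per Ensembl transcript with no normalization, and the submitters' processing notes name Trim Galore, TopHat and HTSeq and the builds mm9 and GRCm38. The annotation release, the strand setting and how shared reads were handled are not given in the sources used here. With the strand setting unknown, reads from a gene and an antisense partner cannot be told apart. Each library listed 58611 transcripts; 58264 (99.41%) matched GENCODE M21, and the 347 others (0.038% of reads) were left out. The test plan assumed counts per gene, so transcripts were summed to 38481 genes. Genes passing the edgeR filter at a minimum count of 10 (13247) entered TMM scaling and the quasi-likelihood F test (edgeR 4.0.16, limma 3.58.1, R 4.3.3), with all 12 libraries in 1 fit of 4 group means. Common biological variation was 6.85%. Standard errors are the log2 fold change over the square root of F, and CPM are TMM-scaled. The fit was tested on simulated data. Between libraries of a group the chi-square per gene was 5.91 to 15.8, so none was counted as a repeat deposit. Gene coordinates are those of GENCODE M21 on GRCm38, and promoter windows those of RefSeq GRCm38.p6.

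All 35 members are accounted for. In each comparison the called members with the largest rises and falls (6 each way) are named with their statistics, the abundant ones in every library, and Hspa5, Xbp1, Herpud1, Eif2ak3, Ern1 and Atf6 in every comparison; from each other list the 2 genes with the smallest p in 2 comparisons are named. Members and lists were chosen with earlier results of these data known. Alternatives were a minimum count of 50 or no filter on counts, RLE scaling, a replicate block, only the compared groups, transcripts one by one, genes with at least 90% countable bases, DESeq2 1.42.0, and leaving out each library. Protein sequences were not used here.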

Additional observations from a re-analysis of the deposited data

Results flagged for a closer look

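The rapamycin change of Edem1 differed between the siRNAs. It was −0.58 ± 0.04 with the Crebl2 siRNA and −0.35 ± 0.04 with the Luc siRNA (log2, SE), a difference of −0.23 that passed the test of the difference itself (edgeR adjusted p = 0.048, over 12 libraries). The call was lost in each of the 12 fits without 1 library and under 4 other settings, with adjusted p values from 0.056 to 0.44.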

How the results depend on the processing

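Of 69 member results called, 63 were lost under none of the settings that the member entered. Members outside the 18 with at least 90% countable bases were not put to that check. With transcripts one by one only the transcript with most reads was followed, and a missing adjusted p was not counted as a loss. Those lost under some setting were Ern1 and Derl1 for the Crebl2 siRNA in ethanol, Ero1l for rapamycin with the Luc siRNA, Hyou1 and Edem3 for rapamycin with the Crebl2 siRNA, and Edem1 for the interaction, and no result changed direction. Calls gained under more than 1 setting were P4hb, Pdia4 and Sec61b for the siRNA in rapamycin, Derl2 and Sec61b for rapamycin with the Luc siRNA, and Dnajb9 and Sec61b for rapamycin with the Crebl2 siRNA. The cause was not tested. With at least 90% countable bases 18 members remained testable, of which 7 were higher and 1 lower for the siRNA in ethanol, 3 lower for the siRNA in rapamycin, 0 higher for rapamycin with the Luc siRNA, and 14 lower and 0 higher for rapamycin with the Crebl2 siRNA. Members higher for the siRNA in rapamycin numbered 6 with RLE scaling, 5 with no count filter, 7 with transcripts one by one, 6 with DESeq2, and 3 to 8 when 1 library was left out (8 without Crebl2 siRNA rapamycin replicate 3, and 5 without replicate 1 of that group or replicate 2 of the Luc siRNA in rapamycin). All genes higher for the siRNA in rapamycin numbered 2157 in the main fit, 2486 with RLE scaling, 2499 unfiltered and 2365 with DESeq2. With transcripts one by one 2616 transcripts were higher, and 1920 to 2285 genes were when 1 library was left out. Members higher for rapamycin with the Crebl2 siRNA numbered 2 with no count filter and 2 with only the compared groups, and 1 to 2 when 1 library was left out (2 without Crebl2 siRNA ethanol replicate 2 or rapamycin replicate 2). The interaction had 0 members lower with RLE scaling, with no filter, with the replicate block, with transcripts one by one, and without any 1 library (0 to 0). Over all genes it had 81 higher and 78 lower, 89 and 49 with RLE scaling, 310 higher with no filter, 136 and 35 with transcripts one by one, 195 and 196 with DESeq2, 36 lower with the replicate block, and 56 to 136 higher and 18 to 63 lower without 1 library.

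Same-numbered libraries of different groups did not deviate together (r from −0.292 to 0.124 over 18 pairs, 2 of them over 0.1, and 3 libraries closest to their own number), so the numbers are not taken as pairs. The replicate block gave 10 members higher for the siRNA in ethanol and lost Derl1 there (0.12, adjusted p = 0.063), Ero1l for rapamycin with the Luc siRNA (−0.16, adjusted p = 0.064) and Edem1 for the interaction (adjusted p = 0.13).

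Few countable reads limit Hspa5, Canx, Manf, Hyou1, Os9, Sel1l, Atf6b and Derl3, and Herpud1, Syvn1 and Selenos could not be tested. Counts per transcript do not show Xbp1 splicing, protein levels or translation. One siRNA sequence and 1 rapamycin dose and time were studied.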
